A study of Homo sapiens with 10 samples.

Results

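Genes of sterol and fatty acid synthesis were followed in U2OS cells, a human osteosarcoma line, after 4 h of PD0332991, also known as palbociclib, which blocks the cell cycle kinases CDK4 and CDK6, or of its solvent DMSO. The set was 28 genes, chosen with earlier results of these data known. A gene was measured where a probe set of the expression table carried its symbol and no other. This held for 23 of the 28, among 14232 genes measured in that way. ACAT2, CYP51A1, HSD17B7 and SREBF2 lay on probe sets shared with other symbols, no probe set was matched to FDFT1, and these 5 genes have no value here. Each measured gene had 1 probe set. The 10 arrays were 5 of each treatment, called biological replicates in the labels, all from U2OS cells grown for 30 h in medium with 10% serum before treatment. The array names divide them into set 1 (replicates 1 to 3 of both treatments) and set 2 (replicates 4 and 5 of both). The dose reads 1 mM in the labels; whether that unit is right is not known here, as culture doses of this drug are commonly micromolar. All values are log2 expression values, so a difference of 1 is a doubling.

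Cells build cholesterol from acetyl-CoA through the mevalonate pathway, which also supplies farnesyl and geranylgeranyl groups for proteins, and then through squalene and a series of sterol intermediates. Fatty acids are made from the same acetyl-CoA by a separate set of enzymes. Both programs are driven by the SREBP transcription factors, which are held in the endoplasmic reticulum by INSIG proteins when sterols are plentiful and are cut and released to the nucleus when sterols run low, SREBP-2 acting mainly on sterol genes and SREBP-1 more on fatty acid genes.

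Genes outside the set did change on these arrays: the cyclin E gene CCNE2 was 3.71-fold lower after PD0332991 (limma adjusted p = 0.00911) and the mTORC1 inhibitor gene DDIT4 2.43-fold higher (limma adjusted p = 0.00177). Of 13 osteoblast and mesenchymal markers, 7 had mean values in the upper quartile of the table (among them SPARC and COL1A1). Another 3 (COL1A2, ALPL and TWIST1) lay below the table's median, and 0 lay in its lower quartile. Among hepatocyte markers 6 of 7 lay in the lower quartile and 0 in the upper. Of 6 adipocyte markers 2 lay in the lower quartile and 0 in the upper. Of 8 epithelial markers 2 lay in the upper quartile and 2 in the lower, and of 6 blood cell markers 4 lay in the lower. The array medians ran from 6.95 to 7.06, and the interquartile range was narrowest on DMSO replicate 1, at 3.18 against 3.32 to 3.68 on the other arrays. The 23 genes had mean values from 6.70 to 11.50, of which 11 lay in the upper quartile of the table and 0 in the lower, so none was among the dimmest probe sets.

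None of the 23 genes changed after 4 h of PD0332991 by the test across the whole table (limma with array set as a covariate, Benjamini-Hochberg adjustment over 21980 probe sets, threshold 0.05). Among all probe sets 0.0091% were called higher and 0.0409% lower. The smallest limma adjusted p among the genes was 1.00, and 0 of 23 had an unadjusted p under 0.05, where 4.17% of all probe sets did. The median log2 fold change over the 23 genes was 0.04 (PD0332991 minus DMSO), against -0.02 over all 14232 genes, and 15 of 23 had a positive sign, or 65.2%, against 44.7% of all genes. The treated and control arrays overlapped for every one of the 23 genes. The same share over all genes is not given here, so this overlap is not a trait particular to the set. For 20 of them the 95% confidence interval of the difference lay within a 1.5-fold change in either direction; the intervals of HMGCS1, MSMO1 and STARD4 reached further up.

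The share of positive signs rested on a single control array. Without DMSO replicate 1, which is described separately below, 7 of 23 genes had a positive sign, or 30.4%, against 53.2% of all genes, and the median was -0.01. Again 0 of the 23 genes were called, against 0.105% of all probe sets, and 1 gene, ELOVL6, had an unadjusted p under 0.05, against 5.86% of all. All 23 confidence intervals were then within a 1.5-fold change. The arrays read RNA from whole dishes, so fewer cells with a transcript and less transcript per cell cannot be told apart.

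**Figure D1:**
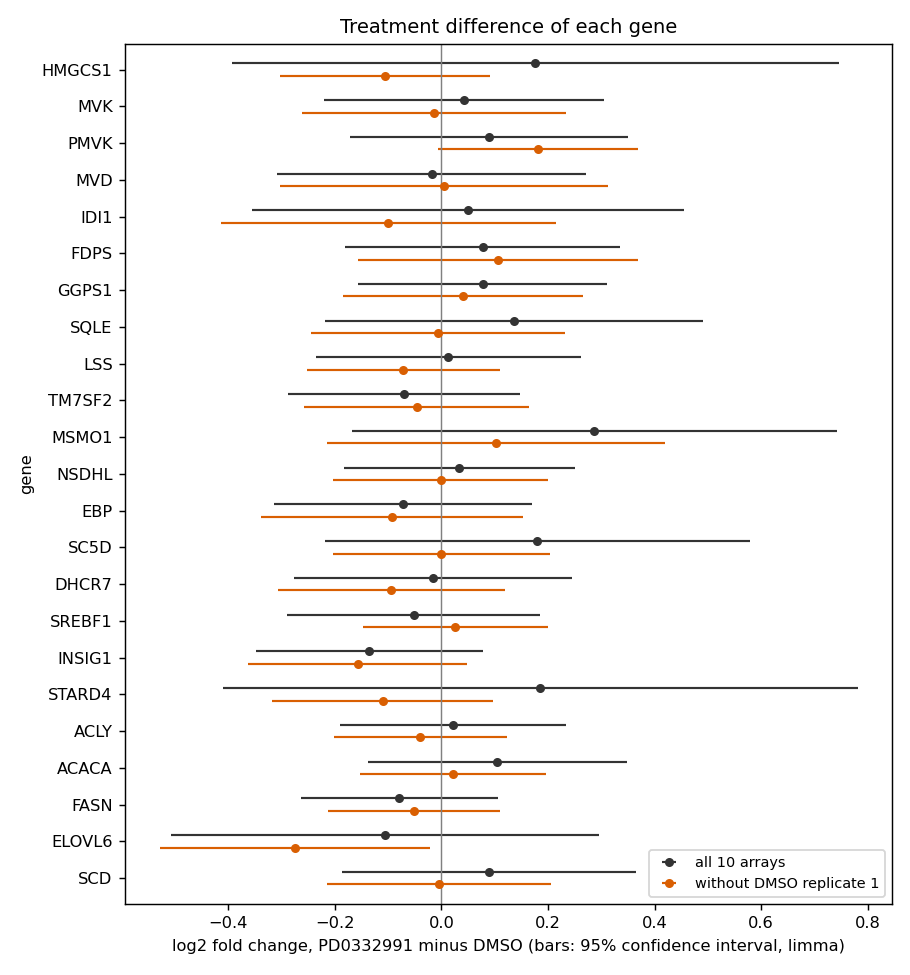
Log2 fold change of each of the 23 genes (PD0332991 minus DMSO, horizontal axis) with its 95% confidence interval from limma, over all 10 arrays (dark) and without DMSO replicate 1 (orange). Without that array the intervals of HMGCS1 and STARD4 are shorter and their estimates move from 0.18 and 0.19 to -0.11 and -0.11.

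The first measured gene of the mevalonate arm was HMGCS1, the HMG-CoA synthase (probe set 2855501). DMSO replicates 1 to 5 had HMGCS1 values of 8.76, 10.15, 10.21, 10.46 and 10.42, and PD0332991 replicates 1 to 5 had 9.96, 10.20, 10.00, 10.24 and 10.48. One control array was far below the other 9, on which the treatments overlapped. The difference between treatments was 0.18 (SE 0.26, 95% confidence interval -0.39 to 0.75, n = 5 arrays per treatment, limma adjusted p = 1.00), and it was -0.11 (-0.30 to 0.09) without that array. The later enzymes of this arm had small differences of either sign: mevalonate kinase MVK 0.04, phosphomevalonate kinase PMVK 0.09, the decarboxylase MVD -0.02, the isomerase IDI1 0.05, farnesyl diphosphate synthase FDPS 0.08 and geranylgeranyl diphosphate synthase GGPS1 0.08, none past the threshold. PMVK had the largest of these without DMSO replicate 1, at 0.18 with an interval of -0.01 to 0.37.

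In the arm from squalene to cholesterol, SQLE (probe set 3114832) encodes squalene epoxidase, an early oxygen-requiring step that limits flux. SQLE values were 9.68, 10.24, 10.47, 10.46 and 10.30 on DMSO replicates 1 to 5 and 10.26, 10.36, 10.60, 10.19 and 10.42 on PD0332991 replicates 1 to 5. Apart from the first control array the treatments covered the same range, and the difference was 0.14 (95% confidence interval -0.22 to 0.49), or -0.01 (-0.24 to 0.23) without that array. LSS, lanosterol synthase (probe set 3935243), closes the ring system. Its values were 8.48, 8.82, 8.92, 9.54 and 9.63 in DMSO and 8.97, 8.75, 8.81, 9.52 and 9.41 after PD0332991, in order of replicate. Both treatments were higher in replicates 4 and 5, which form array set 2, than in replicates 1 to 3, with a treatment difference over all arrays of 0.01 (95% confidence interval -0.24 to 0.26). The treatments overlapped in set 1, and in set 2, where both treated arrays lay just below both controls, the difference was -0.12 (-0.43 to 0.19).

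MSMO1, the sterol methyl oxidase (probe set 2750594), had the largest estimate of the 23 genes. MSMO1 values were 8.07, 9.08, 9.07, 8.75 and 8.52 in DMSO and 9.07, 8.80, 9.26, 8.65 and 9.14 after PD0332991, in order of replicate. The first control array was again lowest, and the other 4 control arrays lay within or just below the treated range. The difference was 0.29 (SE 0.20, 95% confidence interval -0.17 to 0.74, limma adjusted p = 1.00), and 0.10 (-0.21 to 0.42) without DMSO replicate 1. SC5D, the desaturase that makes the diene of the B ring (probe set 3352904), read 7.40, 8.30, 8.38, 8.23 and 8.26 in DMSO and 8.29, 8.08, 8.42, 8.32 and 8.35 after PD0332991. Its 9 arrays other than the first control lay close together, and the difference of 0.18 (-0.22 to 0.58) became -0.00 (-0.20 to 0.20) without that array. The rest of the arm held differences near 0: the sterol reductase TM7SF2 -0.07, the dehydrogenase NSDHL 0.03, the isomerase EBP -0.07 and DHCR7, the reductase of a final step to cholesterol, -0.02, none past the threshold.

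Among the sensing and transport genes, SREBF1 encodes the SREBP-1 precursor and is itself a target of the SREBPs (probe set 3747966). SREBF1 values were 8.74, 8.32, 8.35, 8.72 and 8.67 in DMSO and 8.41, 8.37, 8.39, 8.81 and 8.56 after PD0332991, in order of replicate. Here the first control array stood with the high values of array set 2 and above replicates 2 and 3 of its own set, opposite in sign to HMGCS1. The treatment difference was -0.05 (95% confidence interval -0.29 to 0.19). INSIG1, the retention protein whose transcript is a sensitive SREBP target (probe set 3033209), read 6.98, 6.95, 7.15, 7.16 and 7.22 in DMSO and 7.03, 6.98, 6.87, 7.08 and 6.82 after PD0332991. Its smallest treated value came from replicate 5 and its first control array was not the lowest; the difference of -0.14 (-0.35 to 0.08, unadjusted p = 0.188, limma adjusted p = 1.00) had the smallest unadjusted p of the 23 genes. STARD4, a cytosolic carrier that moves cholesterol between membranes (probe set 2870828), read 7.37, 8.83, 8.87, 9.11 and 9.06 in DMSO and 8.90, 8.68, 8.62, 8.85 and 9.12 after PD0332991. Its first control array lay more than a log2 unit below the other 9, which overlapped, and the difference of 0.19 (-0.41 to 0.78) was -0.11 (-0.32 to 0.10) without it.

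The fatty acid arm begins with ACLY, which makes cytosolic acetyl-CoA from citrate, and ACACA, the acetyl-CoA carboxylase that commits it to fatty acids. ACACA values (probe set 3754469) were 8.03, 8.48, 8.46, 8.52 and 8.37 in DMSO and 8.38, 8.55, 8.43, 8.48 and 8.56 after PD0332991, in order of replicate, a difference of 0.10 (95% confidence interval -0.14 to 0.35). FASN, the fatty acid synthase (probe set 3774635), read 10.59, 10.43, 10.45, 10.69 and 10.71 in DMSO and 10.45, 10.34, 10.45, 10.69 and 10.55 after PD0332991. For FASN the first control array was in the middle of the controls and the difference was -0.08 (-0.26 to 0.11). SCD, the desaturase that makes oleate (probe set 3260586), read 10.06, 10.53, 10.61, 10.66 and 10.60 in DMSO and 10.41, 10.36, 10.71, 10.72 and 10.71 after PD0332991. The controls other than the first lay within the treated range, and the difference was 0.09 (-0.19 to 0.37). ELOVL6, which elongates palmitate (probe set 2781813), read 7.63, 8.47, 8.52, 8.44 and 8.25 in DMSO and 8.10, 8.03, 8.43, 7.96 and 8.27 after PD0332991. Without DMSO replicate 1 its difference was -0.27 (-0.53 to -0.02, unadjusted p = 0.0367, limma adjusted p = 0.785), against -0.11 (-0.51 to 0.30) over all arrays, and neither passed. ACLY differed by 0.02 (-0.19 to 0.23).

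**Figure D2:**
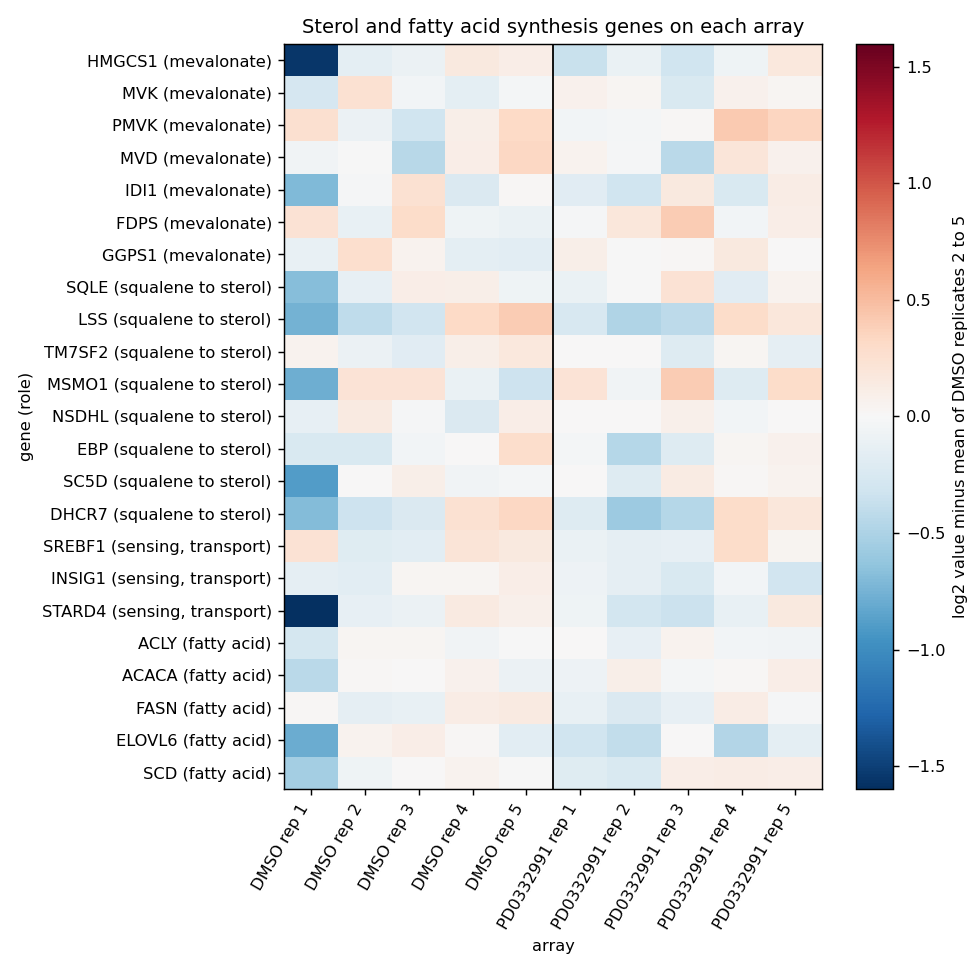
Each of the 23 genes (rows, with role) on each of the 10 arrays (columns), as the log2 value minus the gene's mean over DMSO replicates 2 to 5 (colour, blue lower and red higher). DMSO replicate 1 is the column with the deepest blue, from STARD4 at -1.60 to PMVK at 0.26, and the treated arrays show no shared shift.

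DMSO replicate 1 carried low levels of most of these genes. It was below the mean of the other 4 DMSO arrays for 18 of 23 genes, and also for 7 of 10 measured reference genes. The share of all genes below that mean is not given here. The median difference over the 23 genes was -0.28, against 0.10 over all 14232 genes. The gap was -1.60 for STARD4 and -1.55 for HMGCS1, or 3.02 and 2.93 times lower, where the SDs of the other 4 control arrays were 0.14 and 0.15. Among all genes these were the 30th and 35th lowest differences. SC5D was 1.86 times lower, ELOVL6 1.73, MSMO1 1.72, LSS 1.69, IDI1 1.64, DHCR7 1.62 and SQLE 1.61, and SCD was 1.46 times lower. At the other end were PMVK, FDPS, SREBF1, TM7SF2 and FASN, whose differences ran from 0.02 to 0.26 in the opposite direction, so SREBF1 and FASN did not share the low level of HMGCS1 and STARD4. With 1 array there is no replicate of this pattern and no test of it.

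By counts, DMSO replicate 1 was the lowest of the 5 control arrays for 14 of 23 genes, or 60.9%, where this held for 27.9% of all genes. It was the lowest of all 10 arrays for 13 of 23, or 56.5%, against 22.4% of all genes. For 6 of 23 genes (HMGCS1, SQLE, SC5D, STARD4, ACLY and SCD) it lay outside the other controls by Dixon's criterion, a gap above 0.71 of the whole range, against 4% of all genes. The array was singled out for its low sterol gene level when the genes were chosen, so these shares describe it and test nothing. Part of this array's departure was general. Among the 8406 genes at least as bright as the dimmest of the 23, it was lowest of the controls for 41.2%, with a median difference of -0.09, and met Dixon's criterion on the low side for 6.39%. Of 10 measured reference genes, 5 were lowest there, with HPRT1 at -1.34, PGK1 at -0.84 and PPIA at -0.82, a median of -0.45, lower than that of the sterol and fatty acid genes. Quantile normalization of the table gave the array the same distribution as the others and left STARD4 at -1.59 and HMGCS1 at -1.46, with 15 of 23 genes lowest against 29.9% of all. The part of the array's quality in the low sterol values was not tested.

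**Figure D3:**
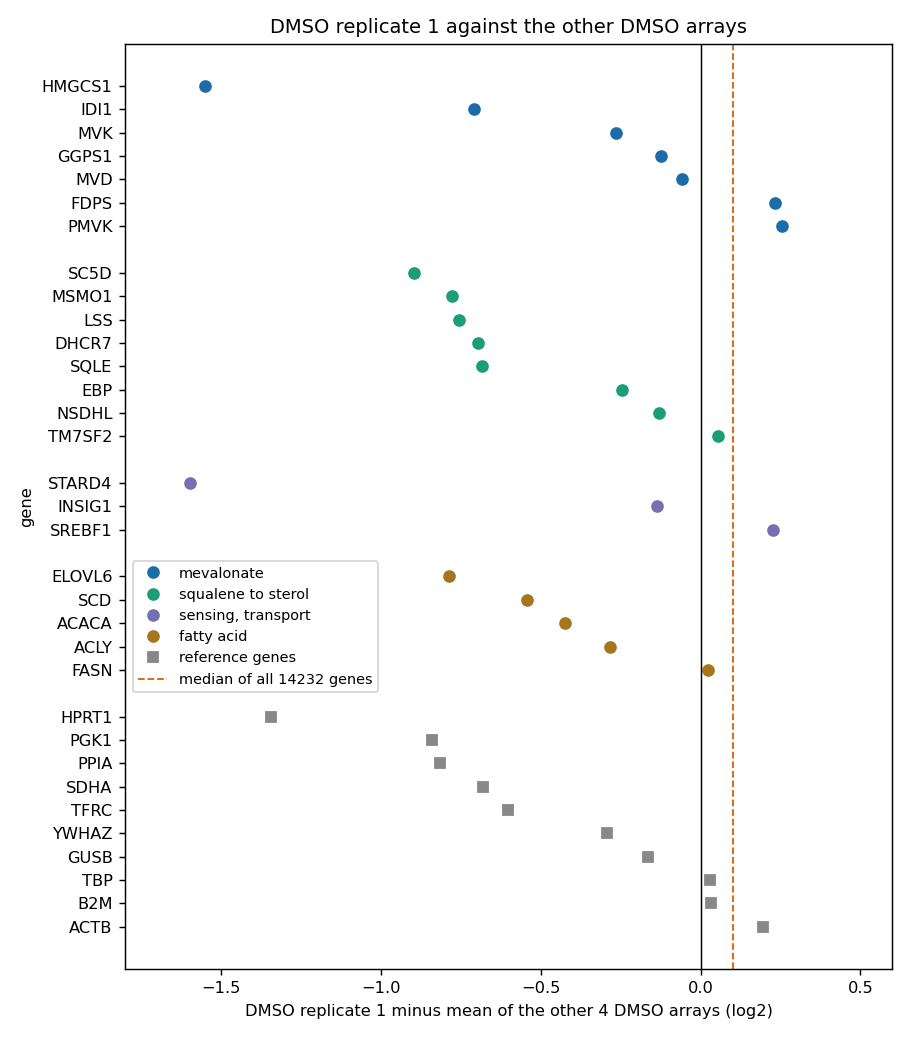
Difference between DMSO replicate 1 and the mean of the other 4 DMSO arrays (log2, horizontal axis) for the 23 genes by role (circles) and for 10 reference genes (grey squares); the dashed line is the median of all 14232 genes, 0.10. STARD4 and HMGCS1 lie lowest, at -1.60 and -1.55, and HPRT1 among the reference genes lies at -1.34.

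The promoters of STARD4 and HMGCS1 are shown because these genes were furthest down together on DMSO replicate 1, and that of SREBF2 because it alone held the sterol response element core; the first pair was chosen after their values were seen. In the RefSeq table of GRCh38.p14, 24 of the 28 genes had 34 promoter entries of 250 bases before to 50 after a start site, with ACAT2, FASN, FDFT1 and SQLE not matched. The core TCACNCCAC, read on both strands, occurred in 1 of 34 of these promoters and in 1.13% of all 35116. CCAAT, the letters bound by NF-Y, a usual partner of SREBP, occurred in 24 of 34 (70.6%) against 34.6% of all, GGGCGG in 30 of 34 (88.2%) against 45.0%, and CACGTG in 4 of 34 (11.8%) against 7.26%. Several entries belong to alternative starts of 1 gene, so they are not independent, and a match is a description of letters only. Capitals mark the core TCACNCCAC in SREBF2 (chr22:41832855-41833104, plus strand) and CCAAT, or ATTGG where it is read on the other strand, in STARD4 (chr5:111512536-111512785, minus strand) and HMGCS1 (chr5:43313413-43313662, minus strand). Each line gives the 250 bases before the start, 5′ to 3′ on the gene's strand, and 0 of the marked matches overlapped another of the motifs.
SREBF2: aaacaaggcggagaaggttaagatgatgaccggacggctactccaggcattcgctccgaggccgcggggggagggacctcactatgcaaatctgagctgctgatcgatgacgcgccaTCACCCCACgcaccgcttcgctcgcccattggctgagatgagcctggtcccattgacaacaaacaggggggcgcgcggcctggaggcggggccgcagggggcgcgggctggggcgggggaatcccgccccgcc
STARD4: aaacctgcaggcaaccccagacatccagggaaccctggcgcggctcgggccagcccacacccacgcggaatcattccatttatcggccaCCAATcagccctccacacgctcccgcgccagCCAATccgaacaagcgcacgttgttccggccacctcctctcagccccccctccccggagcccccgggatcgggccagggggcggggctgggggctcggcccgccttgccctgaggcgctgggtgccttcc
HMGCS1: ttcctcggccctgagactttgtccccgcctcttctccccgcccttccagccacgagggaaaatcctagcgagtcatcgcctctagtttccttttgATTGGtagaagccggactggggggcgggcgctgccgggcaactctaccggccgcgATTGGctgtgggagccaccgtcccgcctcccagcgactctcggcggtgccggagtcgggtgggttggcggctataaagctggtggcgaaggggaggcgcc

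In STARD4 both CCAAT matches lay on the gene's strand, at positions -161 and -130 from the start, and in HMGCS1 both lay on the other strand, at -155 and -100. Another HMGCS1 entry (chr5:43313132-43313431) held GGGCGG but no CCAAT, and only the entry with CCAAT is printed. No core was found in these letters of STARD4 or HMGCS1. SREBF2 held its core at -133 and a CCAAT on the other strand, not in capitals, at -106.

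The array sets differed for some of these genes, in a comparison added after the values were seen. LSS was 1.67-fold higher in set 2 than in set 1 (0.74, 95% confidence interval 0.48 to 0.99, limma adjusted p = 0.0121), with every array of set 2 above every array of set 1. DHCR7 (probe set 3380697) had 9.14, 9.50, 9.60, 10.08 and 10.16 in DMSO and 9.63, 9.25, 9.38, 10.13 and 10.01 after PD0332991, in order of replicate. It too was higher on each array of set 2, 1.60-fold (0.68, 0.41 to 0.94, limma adjusted p = 0.0182). These 2 of 23 were called higher in set 2 and 0 lower, where 2.57% of all probe sets were called higher and 0.965% lower. Full separation of the sets held for 5 of 23 genes, also for HMGCS1, MVD and EBP, which were higher in set 2 but not called. The share of all genes with such separation is not given here, so whether it is particular to these genes cannot be said. Without DMSO replicate 1, 4 genes were called, PMVK (0.40) and SREBF1 (0.33) in addition, all higher in set 2, but calls over all probe sets grew too, to 5.4% higher and 2.81% lower. Because LSS and DHCR7 were higher in set 2, their gap on DMSO replicate 1 shrank from -0.75 and -0.70 to -0.40 and -0.41 against replicates 2 and 3 of its own set alone, whereas STARD4 (-1.48), HMGCS1 (-1.42), MSMO1 (-0.999), SC5D (-0.94) and ELOVL6 (-0.87) kept a wide one.

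**Figure D4:**
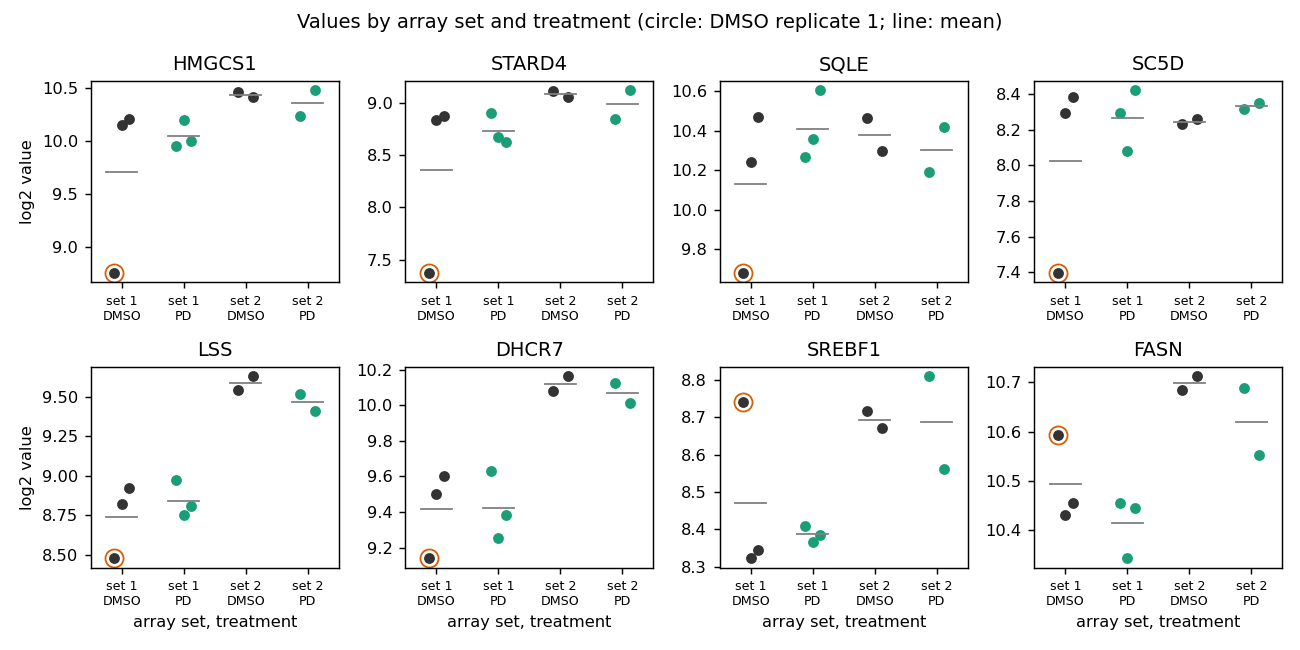
Log2 values of 8 genes by array set and treatment, 1 point per array (dark DMSO, green PD0332991), with group means as grey lines and DMSO replicate 1 circled; each panel has its own vertical scale. LSS and DHCR7 are higher in set 2 under both treatments, and DMSO replicate 1 is low for HMGCS1, STARD4, SQLE and SC5D but not for SREBF1 or FASN.

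The treatment difference was also taken within each set. The median over the 23 genes was 0.03 in set 1 and -0.02 in set 2, and HMGCS1 had 0.34 and -0.08, STARD4 0.37 and -0.10, and SQLE 0.28 and -0.07, set 1 being the set with DMSO replicate 1. FASN had -0.08 in both and MSMO1 0.30 and 0.26. By limma's interaction term 0 of 23 genes were called as differing between sets in their response (smallest limma adjusted p = 1.00), as were 0% of all probe sets. At an unadjusted p under 0.05 the counts were 0 of 23 genes and 2.56% of all probe sets.

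Wider lists of lipid genes gave no call after PD0332991 either, with limma adjusted p-values of 1.00 for all genes named here. For SREBP processing genes, 10 of 11 measured were positive with a median of 0.11, among them the COPII coat gene SEC23A at 0.23, RNF145 at 0.16 and ERLIN2 at 0.12; without DMSO replicate 1, which was lowest of the controls for 8 of the 11, the median was 0.06. Cholesterol uptake and transport genes were positive in 11 of 14 (median 0.06), with the sterol-regulated TMEM97 at -0.31, the lysosomal acid lipase LIPA at 0.31 and the lipoprotein receptor VLDLR at 0.18. Other cholesterol synthesis genes had 3 of 7 positive (median -0.00; ACAT1 0.19, ERG28 -0.12, CYB5R3 -0.19). LXR and efflux genes had 6 of 14 (median -0.05), with the nuclear receptor RXRA at -0.17, the hydroxylase CH25H at -0.24 and the exporter ABCA1 at -0.13.

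On the fatty acid side, supply, elongation and desaturation genes were positive in 10 of 20 (median 0.02), with malic enzyme ME1 at 0.18, HACD3 at -0.20 and ACACB at -0.15. Glycerolipid synthesis genes had 7 of 15 (median -0.02; LPIN1 0.24, PLIN3 0.13, PNPLA3 0.09), and fatty acid oxidation genes 10 of 18 (median 0.00), with the carnitine transferase CPT2 at 0.20, ETFDH at 0.28 and HADHB at 0.24. The isoprenoid branch that uses farnesyl and geranylgeranyl groups had 7 of 11 (median 0.06): the farnesyltransferase subunits FNTB and FNTA stood at -0.22 and 0.27, and PDSS2 at 0.20. Without DMSO replicate 1 the isoprenoid list had 3 of 11 positive (median -0.03) and the glycerolipid list 4 of 15 (median -0.04). Regulators of SREBP had 8 of 19 (median -0.02; MLXIP -0.27, LPIN1 0.24, PRKAA2 -0.15). Over all genes the median was -0.02, and the list medians ran from -0.05 to 0.11.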

How the data were processed

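Single-stranded cDNA from total RNA was hybridised to oligonucleotide arrays, per the labels' protocols. The authors deposited log2 expression values, with 1 value for each probe set on each array. RMA, Partek and the build hg18 are listed in the submitters' processing notes, with no version or setting. RMA normalizes between arrays, and the deposited log2 values were used as they stand. Symbols came from the platform annotation, and 14432 of 21980 probe sets carried 1 symbol; the others (2408 with several, 5140 unnamed) were tested but not named. Treatment was tested over all probe sets with limma 3.58.1 in R 4.3.3 (array set as a covariate, 2-sided, Benjamini-Hochberg, threshold 0.05). The number of arrays limits the precision.

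The genes, lists and tests were chosen with earlier results of these data known. Each of the 23 genes is given; per-array values are given for genes named in the rule, the 6 with the smallest p and the 6 furthest from the other controls on DMSO replicate 1. From each wider list the 3 genes with the smallest p are named. The fitting procedure was tested on simulated data. There, 12 of 50 changes of 0.5 log2 and 35 of 50 changes of 1 log2 were recovered, so small changes would mostly be missed. Figures used matplotlib 3.10.9.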

Additional observations from a re-analysis of the deposited data

Results flagged for a closer look

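Of 46 groups of 5 arrays (23 genes under 2 treatments), 7 held an array outside the others by Dixon's criterion, which chance flags in about 1 of 20 groups. In 6 of them the array was DMSO replicate 1, which was singled out for its low sterol gene level when the genes were chosen, so these values are a description and the rate is no test of them: HMGCS1 at 8.76 (others 10.15 to 10.46), SQLE at 9.68 (10.24 to 10.47), SC5D at 7.40 (8.23 to 8.38), STARD4 at 7.37 (8.83 to 9.11), ACLY at 11.27 (11.50 to 11.58) and SCD at 10.06 (10.53 to 10.66). The genes of 1 array are not independent, and 9.38% of all genes met the criterion in DMSO on either side. The seventh was MVK, low on PD0332991 replicate 3 at 7.45, where the other treated arrays lay from 7.73 to 7.76.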

How the results depend on the processing

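No gene of the 23 was called under any of the 20 other fits, and the median stayed between -0.05 and 0.07. Calls were rare over all probe sets too, at 0.0091% higher and 0.0409% lower in the main fit and 0.105% without DMSO replicate 1. The share is not given for the other fits, so whether the lack of calls there is particular to these genes cannot be said. The count of positive signs (15) was 9 with array weights and ran from 7 to 17 when 1 array was left out, 7 being without DMSO replicate 1. The count called between array sets was 2, or 4 without DMSO replicate 1, while over all probe sets it went from 776 to 1805. A replicate block in place of array set gave 0 calls, 15 positive signs and a median of 0.04. The replicate numbers were not taken as pairs: the deviations of same-numbered arrays correlated at 0.07, 0.10, 0.72, 0.29 and 0.31, over 0.1 for 3 of 5, and 1 of 5 DMSO arrays (replicate 3) correlated best with its own number. Signs of these uncalled differences turned as follows; the cause was not tested. After quantile normalization this was ACLY -0.013. With array weights these were HMGCS1 -0.086, MVD 0.022, IDI1 -0.12, SQLE -0.033, LSS -0.033, NSDHL -0.017, SREBF1 0.037, STARD4 -0.058, ACLY -0.031 and SCD -0.0013. In array set 1 alone these were MVK -0.024, MVD 0.033, GGPS1 -0.033, TM7SF2 0.011 and DHCR7 0.0078. In array set 2 alone these were HMGCS1 -0.077, SQLE -0.075, LSS -0.12, STARD4 -0.098 and ACLY -0.025. Without both arrays numbered 1 these were HMGCS1 -0.080, MVK -0.030, IDI1 -0.069, LSS -0.11, SREBF1 0.018, STARD4 -0.15 and ACLY -0.047. With 1 array left out, the genes whose sign turned ranged thus: HMGCS1 -0.11 to 0.29, MVK -0.014 to 0.12, MVD -0.099 to 0.055, IDI1 -0.099 to 0.16, SQLE -0.0056 to 0.21, LSS -0.071 to 0.050, NSDHL -0.018 to 0.083, SC5D -9.8e-05 to 0.27, DHCR7 -0.094 to 0.032, SREBF1 -0.098 to 0.026, STARD4 -0.11 to 0.30, ACLY -0.040 to 0.047 and SCD -0.0047 to 0.15. The fits without array set, with trend and robust moderation, with the replicate block and without the dimmest 33.3% of probe sets turned none of the 23 signs. Signal over background was not used here.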
